A study of Mus musculus with 24 samples.

Results

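The insulin-like growth factor (IGF) system and its fetal, imprinted neighbours were followed through 25 array probes, all probes that the spot files name Igf1, Igf2, Igf1r, Igf2r, H19, Plagl1, Lin28b, Hmga2, Igf2bp1 or Igf2bp3. They are 25 of 55681 probes on the array and 10 of 34844 gene names, and 24 of the 25 passed a filter that kept a probe if some group had it well above background on each of its arrays. The genes had been picked with earlier results in view. Igf1, H19 and Plagl1 are taken as chosen by their measured difference between transgenic and fetal liver B cells, and which values chose the other genes is not recorded, so for that comparison the values below are a description without a test. RNA of sorted mouse cells was amplified and hybridised to 24 single-colour arrays in 8 groups. Tg DP were CD4 and CD8 double-positive thymocytes from a transgenic thymus deficient in Foxn1 (-/-, n = 4), the transcription factor that thymic epithelium needs, and tg B were IgM-negative B cells from the same kind of thymus (n = 2). The 4 thymocyte groups below came from mice heterozygous for Foxn1 (+/-), called wt in the titles: DN3, stage 3 of the thymocytes without CD4 and CD8 (n = 3), DP (n = 3), CD4 single-positive SP4 (n = 3) and CD8 single-positive SP8 (n = 3). Fetal liver of wild-type mice gave IgM-positive (n = 3) and IgM-negative (n = 3) B cells. The labels name neither the transgenes nor the ages of the thymic donors, and the transgenic thymus is a model whose epithelium lacks Foxn1 in both tg groups. Arrays are named by their title numbers, of which 3 and 3A (wt DP) and 6, 6A and 6B (tg DP) may be repeats of 1 sample. Whether the other replicates are different animals is not said in the labels; p-values therefore describe how far these arrays vary, and that variation may be technical.

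Igf1 and Igf2 are secreted growth factors. Igf1r is the receptor kinase that carries their signal, and Igf2r binds Igf2 and takes it to lysosomes. Igf2 and H19, a noncoding RNA, lie side by side and are imprinted: Igf2 is read from the paternal and H19 from the maternal copy. Plagl1 (Zac1) is a paternally expressed zinc finger factor of an imprinted growth network. Lin28b blocks maturation of let-7 microRNAs in fetal blood progenitors, and Hmga2, Igf2bp1 and Igf2bp3 are let-7 targets that are high in fetal cells.

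No member passed the test in any of 6 comparisons (limma on all 24 arrays, Benjamini-Hochberg adjusted p under 0.05 over all probes tested). Values are log2 processed signals relative to the 75th percentile of the array, given with SD over arrays, and differences are log2 with the SE of that fit. The patterns that stood out by value lay elsewhere than in the tg DP comparison: 6 of the 7 H19 probes read higher in every DN3 array than in every wt DP array, as 5.27% of all probes did (11.8% did not overlap in either direction). Igf1r read higher in all 6 SP4 and SP8 arrays than in the 18 others, as 0.0322% of all probes did, though not with quantile scaling. It passed the filter only through SP4 and SP8, the groups where it is high, so that share is not read as support. Of the 5 Igf1 probes, 1 read higher in both tg B arrays than in the 22 others, as 1.29% of all probes did. These patterns were picked out after their values were seen. Signals come from bulk samples, in which fewer cells of a type and less RNA per cell cannot be told apart.

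Array quality and sorts were checked first. On 23 arrays 87.6% to 96.7% of probes stood well above background, and on tg B 23 80.6% did, whose median processed signal was 128 against 214 to 323. Of the T cell markers, the T lineage factor Tcf7 lay between -3.35 and 1.68 in the 16 thymocyte arrays and between -7.47 and -3.45 in the 8 B cell arrays. The means of all 12 T cell markers overlapped, at -1.12 to 0.28 per thymocyte array and -1.71 to -0.67 per B cell array. B cell markers separated the lineages poorly, with group means of 9 genes between -1.68 and -1.28 in the wt thymocyte groups, and at -1.43 in tg B, -1.22 in IgM-positive and -0.69 in IgM-negative B cells. The B cell receptor component Cd79a, 1 gene picked from these 9, was lowest of all in tg B (-3.29). All 9 genes were well above background on both tg B arrays. The arrays tg B 23, IgM-positive 21 and tg DP 4 had the lowest mean correlation with the other arrays across probes (0.832, 0.853 and 0.865, against 0.869 to 0.926), and values without them are given where 1 of them sets a difference.

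The Igf1 probes lie on chromosome 10 of mouse build mm9, plus strand. Which exon or untranslated region a probe falls in was not looked up, as no genome of this build was used here. The 5 probes start 0, 15105, 15125, 17468 and 21125 bases from the first. The first 30 bases of the 3 probes that share nothing are shown in lower case, and for the overlapping pair 30 of their 40 common bases are shown in capitals, because the 5 probes read different stretches of 1 gene and gave different values:
A_55_P2085979, chr10:87378456-87378485: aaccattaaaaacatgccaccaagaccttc
A_55_P2085984 and A_55_P2031631, chr10:87393581-87393610: AGTCCAATAACATTACAAAGATGGGCATTT
A_55_P2031636, chr10:87395924-87395953: agaaatgtaaatggaataagaggtcagctg
A_55_P2085974, chr10:87399581-87399610: ctcctgattgtatttgaagtggttattcaa

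The 7 H19 probes lie on chromosome 7 (mm9, minus strand), all inside the locus of 2585 bases that the array annotation gives. They are shown whole, in the order of the transcript from its 5′ end, because 1 of them reads unlike the other 6:
A_55_P1961125, chr7:149762417-149762476: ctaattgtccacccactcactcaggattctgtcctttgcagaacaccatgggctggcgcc
A_30_P01026972, chr7:149762173-149762232: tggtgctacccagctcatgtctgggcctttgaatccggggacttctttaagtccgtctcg
A_30_P01028827, chr7:149762113-149762172: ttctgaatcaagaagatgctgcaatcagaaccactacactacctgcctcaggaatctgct
A_30_P01028007, chr7:149761957-149762016: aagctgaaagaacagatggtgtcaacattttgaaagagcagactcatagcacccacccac
A_30_P01025068, chr7:149761756-149761815: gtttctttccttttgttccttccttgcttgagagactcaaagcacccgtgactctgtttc
A_30_P01021588, chr7:149761693-149761752: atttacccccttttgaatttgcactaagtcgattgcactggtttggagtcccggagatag
A_55_P1961127, chr7:149761492-149761551: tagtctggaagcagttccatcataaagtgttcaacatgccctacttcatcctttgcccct

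Of the 4 Plagl1 probes (chromosome 10, mm9, plus strand), a pair is nearly the same sequence. Over 48 aligned bases they differ at 2, although they start 448 bases apart, and their longest common run of 26 bases is in capitals. Another holds CCACAG 4 times, of which 3 are in the 30 bases shown (in capitals). Read on the probe strand as printed, 1 of the 55681 probes holds 4 copies and 2.19% hold at least 1.
A_55_P1961968, chr10:12850832-12850861: ATCTCCTAACCTTTGATGACTCTGTActtt
A_52_P532456, chr10:12851292-12851321: ATCTCCTAACCTTTGATGACTCTGTAtttc
A_55_P1961965, chr10:12848431-12848460: CCACAGccactaCCACAGCCACAGatgcag

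Igf1, the growth factor, gave 5 readings that did not move together. A_55_P2085979, which the array annotation ties to transcript variant 2, read 1.25 and 1.43 in tg B, against 0.38, 0.62 and 0.15 in IgM-positive and 0.38, 0.54 and 0.37 in IgM-negative fetal liver B cells. The 22 arrays outside tg B spanned -0.05 to 0.62, so both tg B arrays lay above all of them. They did so too with median scaling, quantile scaling and normexp background correction, which reprocess the same arrays and are no separate evidence. The difference from IgM-negative fetal liver cells was 0.91, given without a test because this contrast chose the gene. Its 2 spots per array differed by a median SD of 0.04.

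The other Igf1 probes did not show that pattern. A_55_P2031636 read -0.51 in tg B 22 and 0.44 in tg B 23, inside the -1.09 to 0.69 of the other arrays. The overlapping pair split the 2 tg B arrays: A_55_P2031631 read -0.22 in tg B 22, the highest of all 24 arrays, and -5.09 in tg B 23, the lowest. A_55_P2085984 read -0.38 and -6.68 there, again the highest and the lowest, and tg B 23 was the only array on which it was not well above background. Their differences from IgM-negative cells were 0.54 and 0.05, and without tg B 23 they were 2.97 and 3.20.

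Across 24 arrays the overlapping pair followed each other with Pearson's r = 0.97. Every other pair of Igf1 probes had r between -0.26 and 0.23, values that describe arrays sharing depth and scaling. The fifth probe, A_55_P2085974, was well above background on 7 of 24 arrays and is the member that failed the filter; its levels ran from -7.48 to -5.00. In thymocytes the pair was dim and uneven, with A_55_P2031631 at -4.03 ± 0.44 in tg DP (n = 4) and -2.99 ± 0.81 in wt DP (n = 3), where the arrays overlapped.

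**Figure D1:**
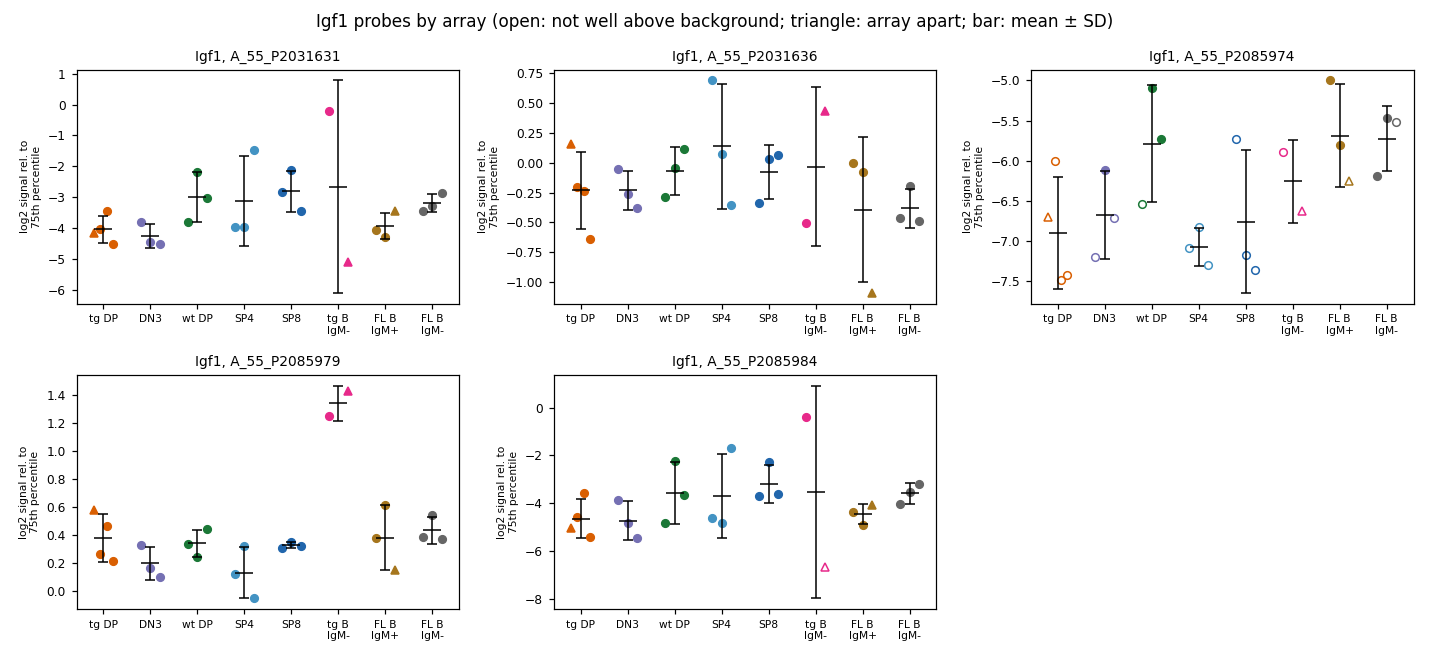
Log2 signal relative to the array's 75th percentile (y axis) of the 5 Igf1 probes in each array of the 8 groups (x axis); open symbols were not well above background, triangles are tg DP 4, tg B 23 and IgM-positive 21, and bars are mean ± SD. A_55_P2085979 is highest in both tg B arrays (1.25 and 1.43), while A_55_P2031631 and A_55_P2085984 put tg B 22 at the top and tg B 23 at the bottom.

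Igf2, the fetal ligand, has 1 probe (chr7:149839661-149839720, mm9, minus strand) and was dim and variable in every group, well above background on all 24 arrays. It read -4.75 and -1.44 in tg B, -4.07, -4.45 and -3.55 in IgM-positive and -2.43, -2.27 and -3.86 in IgM-negative B cells. In DP cells it read -3.77, -3.55, -2.13 and -4.87 in tg DP and -3.37, -1.07 and -2.96 in wt DP. Fetal liver cells therefore did not read above thymocytes as a group. Groups next to each other in the order of means overlapped in their arrays, but these are the closest groups. Further apart, all IgM-positive arrays (at most -3.55) lay below all DN3, wt DP and SP8 arrays (at least -3.45, -3.37 and -2.95). The share of all probes that do so was not counted, and that separation was picked out after its values were seen.

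Igf1r, the signalling receptor, had its highest readings in single-positive thymocytes. Its probe read -2.11, -2.40 and -4.09 in SP4 and -3.47, -3.67 and -2.91 in SP8, against -5.48, -4.20 and -5.77 in wt DP. All 6 single-positive arrays lay above all 18 others, which spanned -7.30 to -4.20; with quantile scaling they did not. Only SP4 and SP8 had the probe well above background on every array, so it passed the filter through the groups where it is high. In tg B no array was well above background (-6.14 and -7.30).

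The measured Igf1r difference was 2.28 ± 0.60 for SP4 minus wt DP and 1.80 ± 0.60 for SP8 minus wt DP. The probe was well above background on 1 of 3 wt DP arrays and entered the fit through SP4 and SP8, so these values are a description, with no test read from them. With normexp background correction they were 1.04 and 0.77. In SP4 minus wt DP, 0% of 52988 probes passed, and 6.42% had an unadjusted p under 0.05. Of the 24 members only Igf1r did, which is not read as a result because of the filter. In SP8 minus wt DP, 0% of 52990 passed and 2.29% had an unadjusted p under 0.05. Of the members the H19 probe A_55_P1961127 did, and Igf1r, which is again not read as a result. Groups did not overlap for 10.9% of all probes there, against 2 members, Igf1r and H19 A_30_P01021588. No wt DP array shares a slide with an SP array, so there is no value within a slide. With slide as a block the differences were 2.99 ± 0.78 and 2.81 ± 0.85. These lean on other groups that link the slides, DN3 on slides 2 and 3 and tg DP on slides 1 and 2. Only 1 DN3 array is on slide 2 and 1 tg DP array on slide 1. On slide 3, 5 single-positive arrays (-4.09 to -2.11) lay above both DN3 arrays there (-6.34 and -5.10).

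The probes of Igf2r, the clearance receptor, were printed 10 times on each array, and these spots differed by a median SD of 0.24, while the 24 arrays ranged from -5.17 to -0.98. Igf2r read -4.82, -4.26 and -4.78 in IgM-positive and -2.89, -3.98 and -2.82 in IgM-negative B cells. The groups did not overlap, and the difference of -1.40 ± 0.83 did not pass (limma adjusted p = 0.741). Within DN3 it ran from -4.36 to -0.98 on 3 arrays, a spread larger than that difference.

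**Figure D2:**
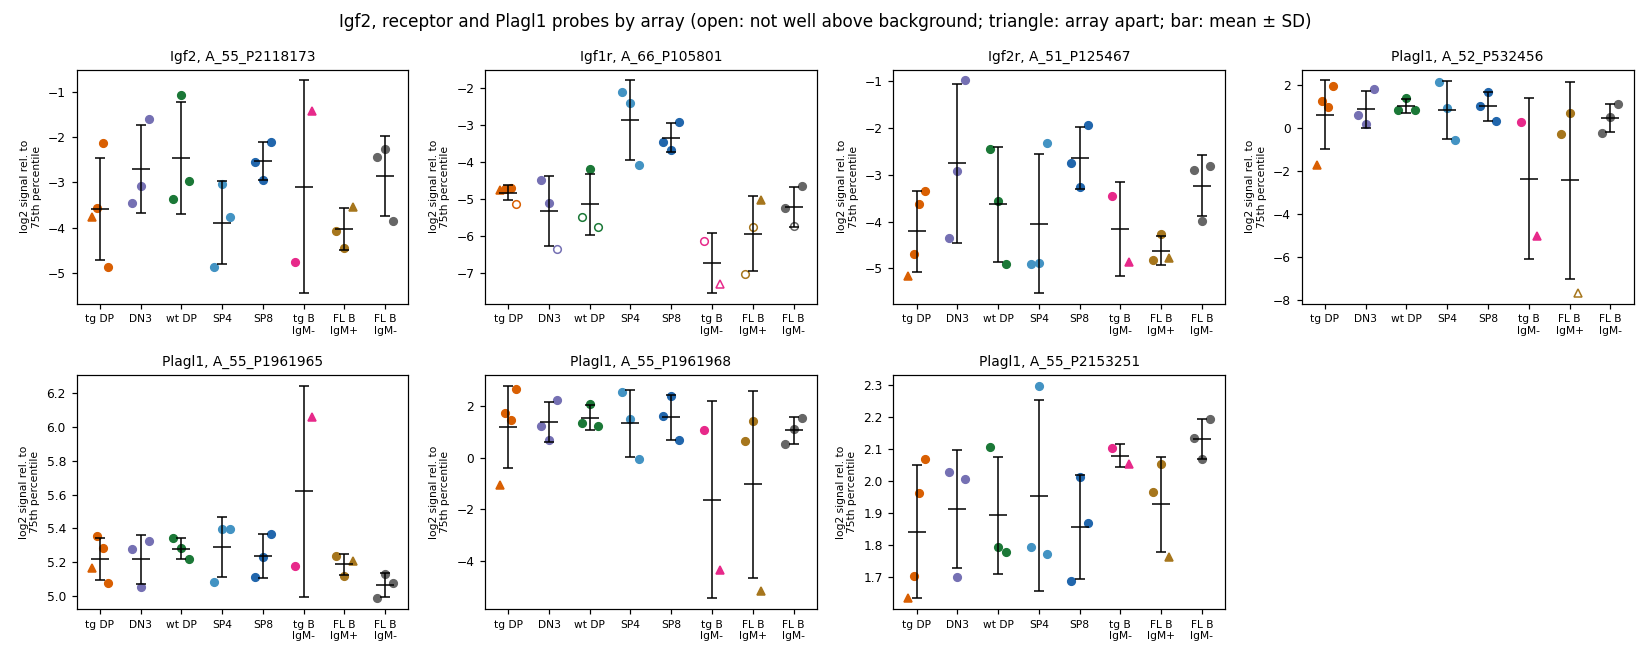
Log2 signal relative to the array's 75th percentile (y axis) of the Igf2, Igf1r, Igf2r and Plagl1 probes in each array of the 8 groups (x axis), with symbols as for Igf1 and bars of mean ± SD. Igf1r is highest in SP4 and SP8 (-4.09 to -2.11), and 2 Plagl1 probes read low on the arrays drawn as triangles.

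The group mean of H19 was highest in DN3 thymocytes on every probe except A_55_P1961125. A_30_P01028007 read -3.16, -2.60 and -1.74 in wt DP, against -0.75, 1.02 and 1.59 in DN3. A_30_P01026972 read -1.97, -2.63 and -1.20 in wt DP, against -0.31, 0.55 and 1.31 in DN3. On both probes the 3 DN3 arrays lay above all 21 other arrays of the series, as on 0.0284% of all probes. The 21 others reached at most -0.89 and -0.57. With median scaling only A_30_P01028007 kept all 3 DN3 arrays above them.

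Of the other H19 probes, A_30_P01021588 read -5.26, -4.69 and -4.89 in wt DP, against -2.91, -1.08 and -0.48 in DN3. A_30_P01025068 read -2.30, -2.49 and -2.14 in wt DP, against -1.50, -0.67 and -0.22 in DN3. On A_30_P01021588 3 other arrays reached the DN3 range, IgM-positive 20 (-0.65), SP4 11 (-1.61) and IgM-negative 18 (-2.73), and on A_30_P01025068 2 did, IgM-positive 20 (-0.56) and SP4 11 (-1.20). A_30_P01028827 read 0.89, 0.51 and 0.74 in wt DP, against 1.04, 1.34 and 1.82 in DN3, and A_55_P1961127 read -4.48, -4.38 and -1.71 in wt DP, against -1.35, -1.63 and -1.46 in DN3. On all 6 probes no wt DP array reached a DN3 array. On A_30_P01028827 1 other array reached the DN3 range, SP8 15 (1.41). On A_55_P1961127 4 did, SP8 15 (-0.32), IgM-positive 20 (-0.52), tg DP 4 (-1.39) and IgM-negative 16 (-1.40). There SP8 15 and IgM-positive 20 lay above every DN3 array. A_55_P1961125 stood alone, between 0.05 and 0.70 on all 24 arrays, with 0.25, 0.28 and 0.16 in wt DP, against 0.21, 0.17 and 0.14 in DN3.

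None of these differences passed. For wt DP minus DN3 they were -3.12 ± 0.67 (A_30_P01028007), -2.45 ± 0.58 (A_30_P01026972), -3.46 ± 0.93 (A_30_P01021588), -1.51 ± 0.46 (A_30_P01025068) and -2.04 ± 0.92 (A_55_P1961127), with a limma adjusted p of 0.99998 each. In that comparison 0% of 52990 probes passed and 2.05% had an unadjusted p under 0.05, against 5 of the 24 members, all of them H19. Of all probes 11.8% had groups that did not overlap, against 6 members, the same 5 and A_30_P01028827. Probes of 1 transcript are not independent readings, so these counts stand for 1 gene.

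Among the 6 H19 probes other than A_55_P1961125, the 15 pairs had r between 0.14 and 0.88 over 24 arrays (median 0.54), and between -0.13 and 0.79 without the DN3 arrays (median 0.27). The probe A_55_P1961125 had r between -0.26 and 0.07 with them. It is the most 5′ of the 7, starting 1543 bases from the 5′ end of the locus and ending 982 bases from its 3′ end, while the others end 57 to 738 bases from the 3′ end.

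The DN3 arrays are spread over slides. On slide 2, the wt DP mean minus DN3 7 was -1.75 for A_30_P01028007 and -1.62 for A_30_P01026972, and DN3 7 lay above all 6 other arrays there on 6 of the 7 probes. On slide 3, DN3 8 and 9 lay above the 5 single-positive arrays on 4 probes. The share of all probes that do so was not counted for either slide. Slide 2 holds 1 DN3 array, and the probes read 1 gene. With slide as a block, the differences were -2.75 ± 0.90 and -2.24 ± 0.72 (adjusted p = 0.99998 each). Markers of hepatocytes, which express H19 in the fetus, averaged -2.11 to -1.70 per array over 10 genes in wt DP and -1.92 to -1.54 in DN3; Afp, which fetal liver cells make, was well above background on 1 of 3 arrays in each of the groups. The part of these markers in the result was not tested.

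In the contrast that chose the gene, the tg B mean of H19 lay below the IgM-negative mean on 6 probes and above it on A_55_P1961125. The tg B means minus the IgM-negative means ran from -1.11 to 0.27 over the 7 probes. Without tg B 23 the differences ran from -1.25 to 0.15, and that of A_30_P01026972 went from -1.05 to -0.34. For example, A_30_P01026972 read -1.95 and -3.36 in tg B, against -1.36, -1.76 and -1.70 in IgM-negative fetal liver cells. The median of all probes in this comparison was -0.27.

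**Figure D3:**
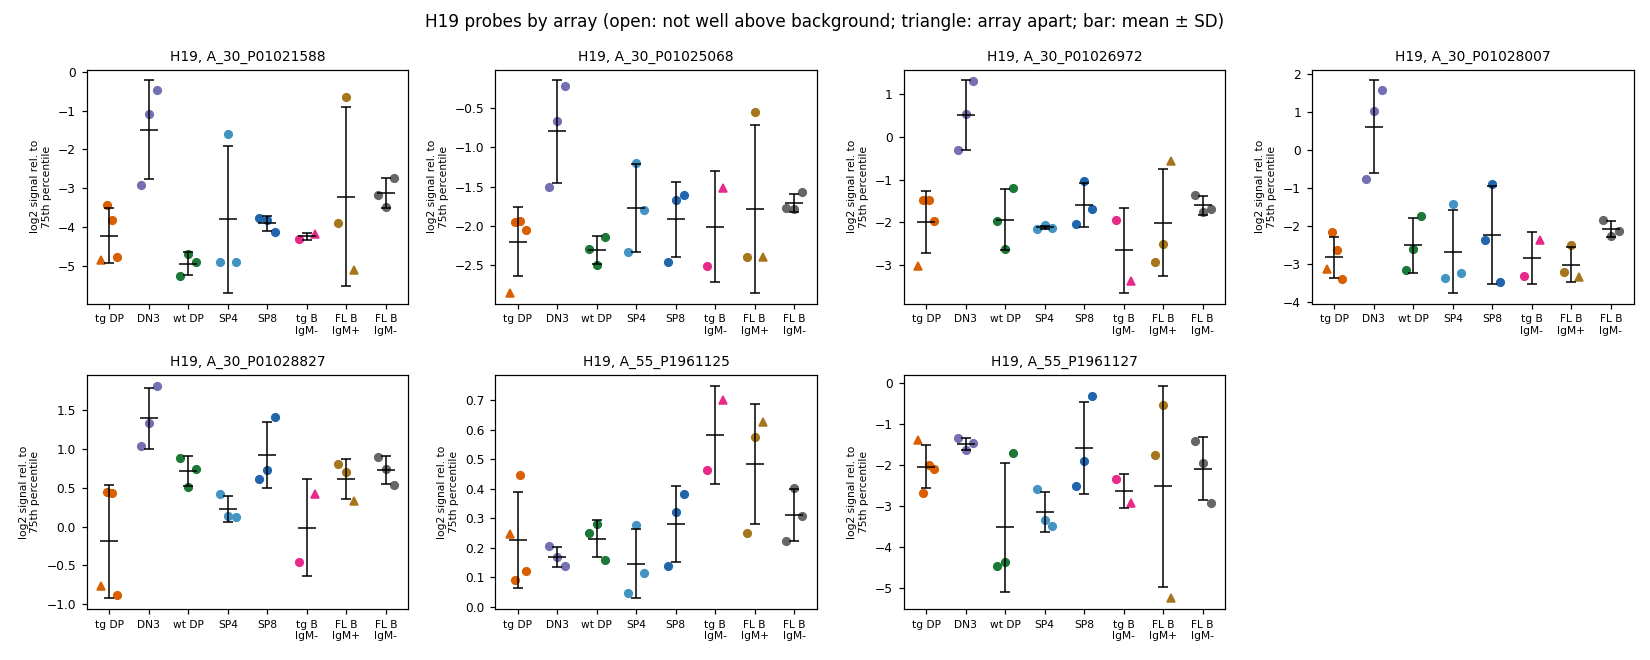
Log2 signal relative to the array's 75th percentile (y axis) of the 7 H19 probes in each array of the 8 groups (x axis), with symbols as for Igf1 and bars of mean ± SD; the y scale differs between panels. DN3 is the highest group mean on every probe except A_55_P1961125, where all 24 arrays lie between 0.05 and 0.70.

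Plagl1, the imprinted zinc finger factor, gave unlike patterns on its 4 probes. A_55_P1961965 read 5.17 and 6.06 in tg B, against 4.98, 5.13 and 5.08 in IgM-negative fetal liver cells, and lay between 4.98 and 5.39 on the 22 arrays outside tg B. A_55_P2153251 read 2.11 and 2.05 in tg B, against 2.14, 2.07 and 2.19 in IgM-negative cells, and spanned 1.63 to 2.30 over all arrays. The first difference of 0.56 in the contrast that chose the gene rests on tg B 23: tg B 22 lay inside the range of the others, and without tg B 23 the difference was 0.11.

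The nearly identical pair of Plagl1 probes moved as one (r = 0.99 over 24 arrays) and read low on single arrays. A_55_P1961968 read -4.34 on tg B 23, -5.19 on IgM-positive 21 and -1.07 on tg DP 4, and between -0.03 and 2.67 on the 21 others. A_52_P532456 read -5.03, -7.70 (not well above background) and -1.70 on the same arrays, and between -0.53 and 2.16 on the others. These are the 3 arrays that correlate least with the rest across all probes. Every group without one of them averaged 1.07 to 1.57 on A_55_P1961968. For A_52_P532456, tg B minus IgM-negative cells was -2.85, and -0.19 without tg B 23. IgM-positive minus IgM-negative cells was -2.90 on that probe, and -0.27 without IgM-positive 21.

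Tg DP thymocytes were compared with wt DP thymocytes, the same stage in different niches (4 against 3 arrays). No member passed; 0% of 52990 probes did, and 3.21% had an unadjusted p under 0.05, against 1 of 24 members. That probe was H19 A_30_P01028827, at -0.77, 0.45, 0.43 and -0.88 in tg DP and 0.89, 0.51 and 0.74 in wt DP. The groups did not overlap, as for 6.51% of all probes, and the difference was -0.90 ± 0.33 (limma adjusted p = 0.999997). The low values were those of arrays 4 and 6B. Without array 4, which leaves arrays 6, 6A and 6B against the 3 wt arrays, all on slide 2, it was -0.71. The other 6 H19 probes overlapped between the groups. The median difference of the 24 members was -0.11, beside -0.08 over all probes.

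IgM-positive fetal liver B cells were compared with IgM-negative ones, which also served as reference in the contrast that chose Igf1, H19 and Plagl1. No member passed; 0% of 52987 probes did, 7.41% had an unadjusted p under 0.05 and 14.2% did not overlap. No member had an unadjusted p under 0.05. Of the members 5 did not overlap, each lower in IgM-positive cells: Igf2r, H19 A_30_P01028007, Plagl1 A_55_P2153251 and the pair of Igf1 probes with overlapping sequence. That Igf1 pair shares a run of 40 bases. The median difference of the members was -0.16, beside -0.18 over all probes.

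The 12 wt thymocyte arrays were compared with the 6 fetal liver B arrays. No member passed, while 0.0491% of 52987 probes did. An unadjusted p under 0.05 was found for 12% of all probes, against 2 of 24 members, Igf1r and Hmga2 A_55_P2043921. No member had groups that did not overlap, as 0.323% of all probes did. Igf1r differed by 1.41 ± 0.36, by 3.27 ± 0.91 with slide as a block and by 0.60 ± 0.15 with normexp background correction. As it entered the fit through SP4 and SP8, which are among these thymocytes, no p is given for it and its place in that count is not read. Its lowest, median and highest levels were -6.34, -4.15 and -2.11 in thymocytes and -7.03, -5.50 and -4.65 in B cells, and the ranges overlapped. Hmga2 A_55_P2043921 differed by -0.53 ± 0.23 (limma adjusted p = 0.367), and by 0.06 with slide as a block. Thymocytes and fetal liver B cells met on 1 slide, with SP4 11 and IgM-positive 19, where Igf1r read -2.40 and -7.03. The values with slide as a block hang on IgM-positive 19, the only B cell array on a slide with thymocytes.

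Lin28b, the fetal let-7 inhibitor, was dim on both probes. A_52_P532355 read -6.33 and -3.85 in tg B, -2.43, -3.43 and -6.26 in IgM-positive and -5.06, -2.77 and -4.32 in IgM-negative fetal liver cells, and was well above background on 18 of 24 arrays. A_55_P1970905 read -3.50 and -5.14 in tg B, -2.83, -3.49 and -3.20 in IgM-positive and -5.22, -2.90 and -2.59 in IgM-negative cells. The probes followed each other with r = -0.07 over 24 arrays, and fetal liver cells overlapped with thymocytes on both.

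Hmga2, a chromatin protein of fetal progenitors, was dim as well. A_52_P300730 ran from -7.43 in tg B 23 to -1.61 in IgM-positive 19, and A_55_P2043921 from -4.55 to -2.37, with r = 0.09 between them. Igf2bp3, an RNA-binding protein of fetal cells, ran from -5.37 to -1.63.

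Igf2bp1, its relative, was well above background on 15 of 24 arrays, on all of them in DN3, wt DP and IgM-positive B cells and on none in SP4 and tg B. It read -4.94, -5.98 and -5.64 in SP4, against -3.32, -3.58 and -3.14 in wt DP. Because no SP4 array was well above background, the measured means give a level at least 3.86-fold lower in SP4, a bound without allowance for spread, and the fit did not pass (limma adjusted p = 0.814). Groups that did not overlap were 15.2% of all probes in SP4 minus wt DP, against 4 members. In SP8 Igf2bp1 read -3.07, -2.46 and -7.35, a range wider than any group difference.

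**Figure D4:**
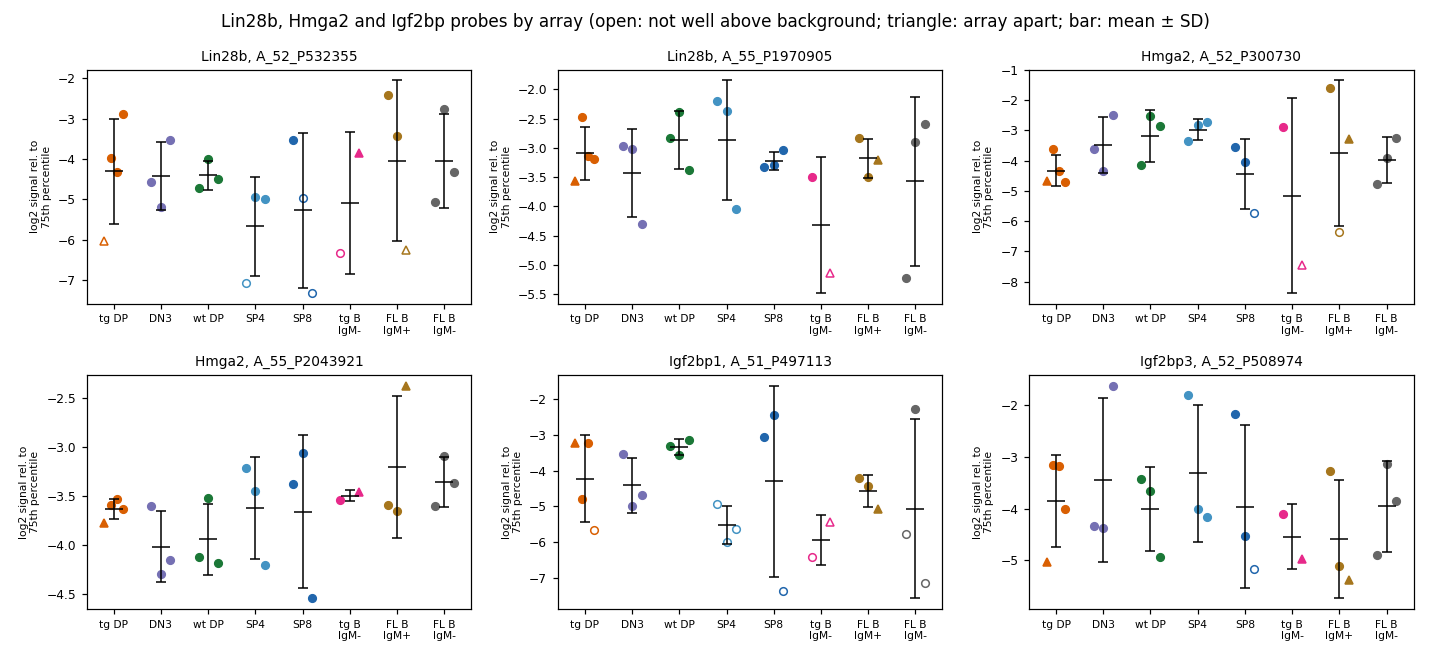
Log2 signal relative to the array's 75th percentile (y axis) of the Lin28b, Hmga2, Igf2bp1 and Igf2bp3 probes in each array of the 8 groups (x axis), with symbols as for Igf1 and bars of mean ± SD. Most groups overlap; Igf2bp1 is not well above background on any SP4 or tg B array.

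Spread tended to be smaller at higher levels among the members (r = -0.38 between mean level and SD over 25 probes). The 15 probes with a mean below -2 had SDs of 0.47 to 1.42 over 24 arrays (median 1.20), and the 10 others 0.17 to 2.21 (median 0.49). Over all probes that passed, level and SD had r = -0.66. Among the 4 steadiest members, only 3.1% of probes had a smaller SD than H19 A_55_P1961125, and 3.94%, 6.68% and 21.4% had a smaller one than Plagl1 A_55_P2153251, Plagl1 A_55_P1961965 and Igf1 A_55_P2085979. At the other end, 99.3% of probes had a smaller SD than Plagl1 A_52_P532456. Base composition also went with level: GC content and mean level had r = 0.56 over the 25 members and 0.46 over all probes that passed.

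**Figure D5:**
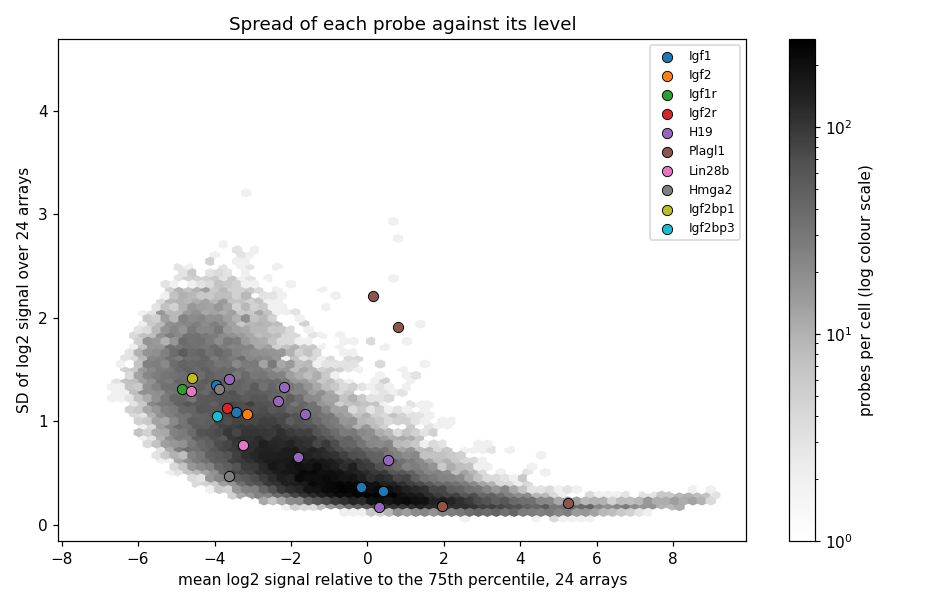
SD over 24 arrays (y axis) against mean log2 signal relative to the 75th percentile (x axis), in grey for all probes that passed the filter and in colour for the 24 members that did. The members follow the grey cloud except for 2 Plagl1 probes, at SDs of 1.91 and 2.21.

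Other genes of these pathways were taken from lists. Of 29 probes for 21 genes of IGF binding and signalling, 32 for 18 imprinted growth genes and 18 for 12 genes of the Lin28 and let-7 axis, none passed in any of the 6 comparisons. In tg DP minus wt DP the list medians were 0.03, 0.06 and -0.07, beside -0.08 over all probes. In thymocytes minus fetal liver B cells they were 0.02, -0.05 and 0.10, beside 0.07.

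The pathway genes with the smallest p-values were these. Foxo3, a transcription factor that IGF signalling shuts off, averaged -0.83 ± 0.26 in tg DP (n = 4) and -1.24 ± 0.06 in wt DP (n = 3), a difference of 0.41 ± 0.18 (limma adjusted p = 0.999997). The binding protein Igfbp5 averaged -3.71 ± 0.57 in tg DP and -4.63 ± 0.39 in wt DP. Zcchc11, which tags let-7 precursors, averaged -1.997 ± 0.57 and Drosha, which cuts microRNA precursors, -2.88 ± 2.73 in tg DP, against -2.95 ± 0.27 and -1.15 ± 0.83 in wt DP. Among imprinted genes, Nnat averaged -4.71 ± 2.32 and Peg3 -0.99 ± 0.69 in tg DP, against -2.65 ± 0.38 and -2.32 ± 1.92 in wt DP. Each of these has a limma adjusted p of 0.999997, and none is called.

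In thymocytes minus fetal liver B cells, Foxo3 differed by -0.56 ± 0.12 (limma adjusted p = 0.0881) and Igfbp4, another binding protein, by -1.48 ± 0.36 (adjusted p = 0.112). Both stayed above the threshold. Ascl2 differed by -0.61 ± 0.26 and Slc22a18 by -0.33 ± 0.15 (adjusted p = 0.355 and 0.377), both imprinted genes. Zcchc11 differed by 0.50 ± 0.31 and Trim71, a let-7 target, by -0.15 ± 0.09 (adjusted p = 0.551 and 0.572).

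The probes most like Igf1 A_55_P2085979 over 24 arrays were those of E130304I02Rik, Cenpp and 1700024G13Rik (r = 0.89, 0.88 and 0.86). For Igf2 they were Oas1a, Ccdc116 and Msmb (r = 0.82, 0.80 and 0.75). For H19 A_30_P01028827 they were Opn4, Vwa5b2 and Stard7 (r = 0.85, 0.75 and 0.75), and for Plagl1 A_55_P1961965 they were Preb, Anapc7 and Cacna1i (r = 0.89, 0.87 and 0.86). They were chosen as the closest of all named genes, and arrays share their scaling.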

How the data were processed

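RNA of 24 sorted cell samples was amplified by PCR and hybridised with Cy3, per the labels' protocols. Per the file headers, the deposited spot files hold signal intensities from Feature Extraction 10.7.3.1 (processed, mean and background) and flags. The deposited series matrix holds log2 values that the authors made equal in distribution between arrays (every column has a median of 7.93); the program is not named in the sources used here, and it was used as an alternative setting.

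The 3671 control spots among the 62976 spots of an array were dropped, and 248 spots marked as non-uniform were treated as missing. Spots of 1 probe were averaged, and a level is the log2 processed signal less that array's 75th percentile. Probes that some group had well above background on each of its arrays (95.2%) were tested in R 4.3.3 by the lmFit and eBayes functions of limma 3.58.1, on the 24 arrays together, with 1 mean per group and no covariate, adjusted by Benjamini-Hochberg; calls needed an adjusted p under 0.05. The number of arrays per group limits the precision. The fit was also run on simulated data with 200 changed probes. The simulated arrays varied independently, without slides or repeats of a sample, so that run does not show how the fit does on these arrays. Slides (4) come from the file headers. Where a group had a probe well above background on none of its arrays, only a bound is given: the brighter group's mean against, for each dim array, its lowest signal well above background or the level of the probe, whichever is higher.

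The members and lists were chosen with earlier results of these data known. Named genes are all member probes, listed genes that passed or otherwise the 2 with the smallest p per list in tg DP against wt DP and in thymocytes against fetal liver B cells, and the 3 genes whose probe is most like the brightest probe of Igf1, Igf2, H19 and Plagl1. A gene symbol came from the spot files; the accession of Igf1 A_55_P2085979 was not matched in the RefSeq table used here.

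Alternatives were median and quantile scaling, normexp background correction, the authors' deposited log2 values, other filters, slide as a block, only the groups compared, arrays sharing a title number averaged, 1 probe per gene, and leaving out arrays.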

Additional observations from a re-analysis of the deposited data

Results flagged for a closer look

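In tg DP, the only group with enough arrays for this check (4), 2 of the 25 member probes had an array far from the others by Dixon's criterion, where chance flags about 1 in 20. That rate assumes 4 independent arrays. Here 6, 6A and 6B share slide 2 and may be repeats of 1 sample, while tg DP 4 is on slide 1. Igf1r was well above background on 3 of the 4 arrays. Igf1r read -5.1379 on tg DP 6B and -4.77, -4.74 and -4.69 on tg DP 4, 6 and 6A. H19 A_30_P01025068 read -2.8511 on tg DP 4 and -1.95, -1.93 and -2.05 on tg DP 6, 6A and 6B.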

How the results depend on the processing

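The count of 0 called members was the same in all 115 alternative and leave-one-out fits of the 6 tested comparisons. In wt DP minus DN3 and SP8 minus wt DP, these fits called 0 of all probes, and in tg DP minus wt DP at most 1. A stable count of 0 members there was therefore nearly fixed in advance and says little about the members. Among the 11 differences with an unadjusted p under 0.05, none was called in 203 such fits. Those of Igf1r among them are not read as a test, because it entered the fit through SP4 and SP8. The direction turned once: Hmga2 A_55_P2043921 in thymocytes minus fetal liver B cells was 0.0625 with slide as a block. Igf1 A_55_P2085979 in tg B minus IgM-negative fetal liver cells was 1.20 with median scaling, 0.80 with quantile scaling and 0.814 to 0.996 when 1 array was left out. The cause of the move was not tested, and these values only describe the contrast that chose the gene.

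Of 144 member differences in the tested comparisons, 100 kept their sign with slide as a block and 126 to 134 with the scalings, normexp and the authors' values; of the 29 larger than 1, slide as a block turned 2, both of Plagl1 in thymocytes minus fetal liver B cells, A_52_P532456 and A_55_P1961968. Over all probes, thymocytes minus fetal liver B cells gave 26 calls, 4 to 142 in the alternatives, and 0 to 193 when 1 array was left out. SP4 minus wt DP gave 0 calls, 0 to 51 in the alternatives. For tg B minus IgM-negative cells the fit gave 18 calls, and 0 to 97 in the alternatives. Leaving out a tg B array leaves 1 array in that group, so no count is given for it. No paired analysis was possible because the groups share no replicate numbers. Dim probes limit the rest: 9 of the 25 member probes were not well above background on 1 or more arrays.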
